A study of Mus musculus with 2 samples.

Results

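Interferon-stimulated genes are the genes that a cell switches on when an interferon reaches one of its receptors. Type I interferons (alpha, beta, kappa, epsilon) and type III interferons (lambda) act through different receptors but the same factor, a complex that includes Stat2 and Irf9 and binds a promoter element called the interferon-stimulated response element (ISRE). Interferon gamma acts at a different element, the gamma-activated site (GAS). Skin is an interferon-responsive barrier tissue: keratinocytes respond to all of these families, and the hair follicle bulge is known as a site of low antigen presentation.

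The 9 genes followed here were Ifi27l2a, Isg15, Ifit1, Ifit3, Irf7, Bst2, Ifitm3, Oasl2 and Rtp4, found by symbol among 31053 features, and all 9 were present. They were chosen with results of these libraries known: Ifi27l2a had already been seen higher in a hair germ-like cluster of the induced library. Every ratio between the libraries below is therefore a description.

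Back skin came from 2 mice at postnatal day 53, and 1 single-cell RNA-seq library was made from each. The induced mouse carried an inducible miR-205 transgene (pTRE2-miR-205, made by injection into FVB mice) and Krt14-rtTA, which places the doxycycline-dependent activator in Krt14-expressing keratinocytes, and it ate doxycycline chow for 4 days from postnatal day 49. The control was a gender-matched littermate. The labels and methods do not say whether it carried Krt14-rtTA, and they differ on doxycycline: the extraction text has both mice fed, the sample field has the control untreated. Both mice carried a K14-H2BGFP allele, the labels give C57BL/6 as the strain of both, and live cells were sorted to a mix of epidermal, follicle and dermal cells of 3:5:2. With 1 mouse per group, the transgene, the animal and its doxycycline history cannot be told apart. No test between groups was possible, so the 95% intervals below cover counting error only.

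The control library held 4545 barcodes and 55465594 unique molecular identifiers (UMIs, each one captured RNA molecule), and the induced library 4264 barcodes and 49733560 UMIs. After the cell filter 3936 and 3628 cells were left, with medians of 12198.5 and 11752.5 UMIs. The libraries had 11 barcodes in common, of which 5 were kept in both. The host transcript of the endogenous miR-205, 4631405K08Rik, stood at 102.9 CPM (UMIs of a gene per 1000000 UMIs of all genes) in control and 105.6 CPM in induced cells. It does not read out the transgene, so it does not check the labels. Cells fell into 25 clusters, built without the followed genes and the interferon pathway genes listed below. Other genes were not withheld, so genes off the lists that respond to interferon could still shape a cluster. The 18 clusters with at least 40 cells in each library were compared, and they keep their number where their markers did not name them. HF-SC stands for hair follicle stem cell, HF for hair follicle and IFE for interfollicular epidermis. Cluster 7 had the highest mean fold over hair germ markers (Lgr5, Cdh3, Lef1, Msx2 and Gli1 were raised in it). It stays unnamed, because its top 10 genes held the smooth muscle markers Acta2 and Tagln and 0 hair germ markers.

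Promoter windows of 250 bases before to 50 after each gene's start (RefSeq, GRCm38.p6, the same build as the files) were at hand for 7 of the 9 genes. The ISRE was searched on both strands as GAAA, any 2 bases and GAAA again. It was present in 5 of the 7 windows (71.4%), against 3.99% of the windows of 27025 genes. The 4 stretches below, 1 from each of 4 members, are shown because they hold the element that members of the group have in common, in capitals, written along the gene's own strand. In Ifit1 and Ifit3 the element lies on the opposite strand and reads as its complement. Distances are counted from the transcript start to the first capital base.
Isg15, chr4:156200871-156200900, minus strand, −72: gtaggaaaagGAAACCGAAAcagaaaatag
Ifit1, chr19:34640794-34640823, plus strand, −85: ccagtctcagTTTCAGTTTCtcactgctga
Ifit3, chr19:34583397-34583426, plus strand, −122: tttaagtctgTTTCAGTTTCtactttcctc
Bst2, chr8:71537577-71537606, minus strand, −124: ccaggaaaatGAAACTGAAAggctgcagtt
Isg15 held 3 overlapping matches, at −78, −72 and −66, and Ifit1, Ifit3, Bst2 and Ifitm3 held 2 each, those of Ifitm3 lying just after the start. Irf7 and Oasl2 had no match in this window, and Ifi27l2a and Rtp4 had no window. The GAS, searched as TTCNNNGAA, was in 2 of the 7 windows (Bst2 and Ifitm3) against 9.55% of all genes, and in both genes 1 GAS match overlapped an ISRE match.

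The second sequence of interest is that of the microRNA that was induced. Its mature form is printed with the seed, bases 2 to 8, in capitals.
mmu-miR-205-5p: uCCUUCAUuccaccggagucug
The complement of this seed, ATGAAGG, was found in 1 of the 9 genes, Oasl2, when each gene's longest 3′ UTR was searched, and in 10.3% of 20007 genes.

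Over all kept cells the 9 genes stood higher in the induced library. Ifi27l2a (ENSMUSG00000079017, chr12:103433873-103443680), which encodes a small interferon-induced membrane protein, had 836 UMIs (16.5 CPM) in control and 6069 UMIs (133.8 CPM) in induced cells, or a log2 ratio of 3.02 with an interval of 2.91 to 3.12. The end of its transcript shares 40.8% of its 50-base words with Ifi27l2b, whose own counts were 4 and 5 UMIs, so the reads of the pair are not fully separable. It was unevenly spread over the clusters.

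In the control library the Ifi27l2a level lay between 0 and 59.6 CPM in the 18 compared clusters and was highest in the cycling-like cluster 14. Cluster 13 followed at 23.2 CPM and cluster 3 at 18.2 CPM, and 15 further clusters lay at 15.6 CPM or below, where neighbours in the order mostly overlapped in their intervals. In the induced library the order was another one. Cluster 6 (IFE suprabasal-like, led by Flg) stood at 366.9 CPM, cluster 14 at 363.7 CPM and cluster 5 (upper HF-like, led by Krt79) at 349.2 CPM, and these 3 did not differ beyond their intervals. Cluster 15 (upper HF-like, led by Sostdc1) followed at 284.4 CPM and cluster 10 (Krt8, Krt18 and Krt19 among its leading genes) at 217.0 CPM. At the other end the inner bulge-like cluster 4 stood at 5.44 CPM and the HF-SC-like cluster 1 at 6.90 CPM. Among the smaller clusters, which were not compared, cluster 19 (Lyz1, Lyz2 and Mrc1 among its leading genes, 28 and 33 cells) stood higher. It had 112 UMIs (261.1 CPM) in control and 278 UMIs (626.1 CPM) in induced cells, and 5 cells held 74.1% and 60.4% of them. Cluster 18, led by Gzmb, Icos and Cd8a, held 10 UMIs (148.8 CPM) in 16 control cells and 102 UMIs (249.0 CPM) in 76 induced cells.

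**Figure D1:**
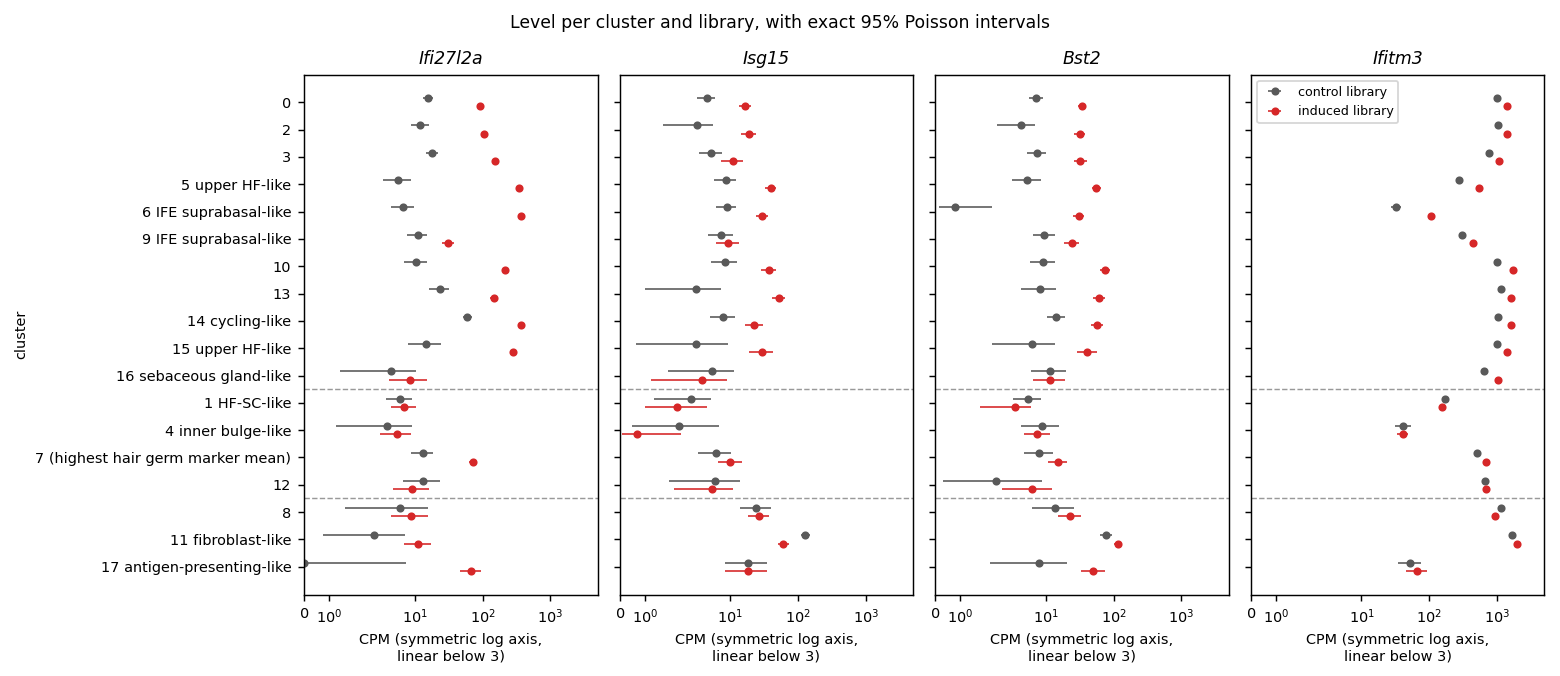
Levels in CPM (symmetric log axis, linear below 3) of Ifi27l2a, Isg15, Bst2 and Ifitm3 in each compared cluster, control library in grey and induced library in red, with exact 95% Poisson intervals. Dashed lines separate the 11 keratinocyte clusters without raised Lhx2 (top), the 4 with raised Lhx2 (middle) and the other 3 clusters; Ifi27l2a in cluster 5 sits at 5.58 and 349.2 CPM, in cluster 1 at 5.98 and 6.90 CPM.

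Of the 18 clusters, 16 held at least 20 Ifi27l2a UMIs over both libraries, and in 13 of them the gene was at least 2-fold higher in the induced library; it was 2-fold lower in 0. In those clusters between 2.25% and 5.92% of all genes with at least 20 UMIs were at least 2-fold higher. A gene that is near 0 in control passes such a filter only through its induced counts, so these shares of clusters carry no weight as evidence. Cluster 5 had the widest gap that rests on counts in both libraries: 19 UMIs in control and 1158 in induced cells, or a log2 ratio of 5.93 (5.32 to 6.71). Cluster 6 was close behind, with 26 and 1248 UMIs and a log2 ratio of 5.75 (5.22 to 6.39). In the antigen-presenting-like cluster 17, led by the Langerhans cell gene Cd207, 0 control UMIs faced 34 induced UMIs, at least 11.3-fold against 3 counts in the control sum, and 5 cells held 91.2% of the induced UMIs.

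HF-SC-like cells had 21 Ifi27l2a UMIs (5.98 CPM) in control and 24 UMIs (6.90 CPM) in induced cells, or a log2 ratio of 0.20 (−0.70 to 1.12). Inner bulge-like cells had 5 and 16 UMIs, with a log2 ratio of 0.38 (−1.04 to 2.28). Both intervals include 0, so no difference was detectable at this depth, and the upper bound for HF-SC-like cells lies under the lower bound of each cluster without raised Lhx2 described next, except clusters 9 and 16. Cluster 7 had 30 UMIs (13.2 CPM) in control and 196 UMIs (72.9 CPM) in induced cells, or a log2 ratio of 2.44 (1.91 to 3.07). There 5 cells held 70% of the control UMIs, and without the 5 highest cells of each library 9 and 125 UMIs were left, a log2 ratio of 3.49. Cluster 12, led by Col4a4, Hhip and Pthlh, was at 13.2 and 9.23 CPM.

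The clusters were also split by Lhx2, a transcription factor of bulge and germ cells, a choice made after the values were seen. Of 15 keratinocyte clusters, 11 did not have Lhx2 raised. In 10 of these Ifi27l2a could be compared, and its log2 ratios ran from 1.48 (cluster 9, IFE suprabasal-like, led by Krt1) to 5.93. The sebaceous gland-like cluster 16 held 5 and 11 UMIs, too few. In the 4 clusters with raised Lhx2 (clusters 1, 4, 7 and 12) the ratios were 0.20, 0.38, 2.44 and −0.52, and cluster 7 alone was past 2-fold with all cells included. Clusters 4 and 12 rest on few cells: without the 5 highest cells of each library they held 0 control and 8 induced UMIs, and 0 control and 5 induced UMIs. Their log2 ratios were then 2.86 and 2.76, both past 2-fold, though with 0 control UMIs they depend on the pseudocount. The split by Lhx2 therefore hangs on few cells in these 2 clusters. Under 5% mitochondrial UMIs cluster 12 was at 0.80. The difference between the 2 sets of clusters was not tested, since clusters of one mouse are not replicates.

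The share of cells with an Ifi27l2a UMI followed the levels. Thinned to 5000 UMIs each, 10 of 253 cells (3.95%) in cluster 5 had one in control and 83 of 216 (38.4%) in the induced library, and unthinned the shares were 5.08% and 49.8%. Cluster 6 had 5 of 222 cells (2.25%) and 77 of 196 (39.3%), and cluster 7 had 6 of 189 (3.17%) and 39 of 204 (19.1%), with unthinned shares of 5.58% and 31.6% in the latter. HF-SC-like cells had 8 of 334 (2.40%) and 10 of 336 (2.98%), and inner bulge-like cells 1.32% and 2.62%. No skin cell type is known to lack the gene, so no background share from free RNA could be set, and its part in shares of a few percent was not tested. Median depth in the control library was 12569.5 UMIs in cluster 5, 11011 in cluster 7, 9711 in HF-SC-like and 7848 in inner bulge-like cells.

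Bst2 (ENSMUSG00000046718), the tether that holds budding virus at the cell surface, had 17 clusters with at least 20 UMIs. It was at least 2-fold higher in 11, beside 2.25% to 5.92% of all genes over the 18 clusters. In cluster 6 it had 3 UMIs (0.774 CPM) in control and 104 UMIs (30.6 CPM) in induced cells, and in cluster 5 there were 18 UMIs (5.28 CPM) and 184 UMIs (55.5 CPM), a log2 ratio of 3.36 (2.69 to 4.18). The HF-SC-like cells went the other way within counting error, with 19 and 12 UMIs and a log2 ratio of −0.63 (−1.82 to 0.47). Fibroblast-like cells had the highest control level of the 18 compared clusters, 77.3 CPM, and 114.4 CPM in the induced library. Some smaller clusters, which were not compared, stood higher. The T cell-like cluster 21 (29 and 28 cells) had 33 and 66 UMIs, or 250.4 and 464.0 CPM. The endothelial-like cluster 24 (7 and 15 cells) had 15 and 69 UMIs, or 185.6 and 629.9 CPM. There 5 cells held 93.3% of the control and 79.7% of the induced UMIs.

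Isg15 (ENSMUSG00000035692), a ubiquitin-like modifier, had 13 clusters with enough UMIs. It was at least 2-fold higher in 9, beside 2.25% to 5.92% of all genes over the 18 clusters. Cluster 13, led by Ascl2 and Fzd10, had the widest gap, with 5 UMIs (3.14 CPM) in control and 74 UMIs (51.7 CPM) in induced cells. There 5 cells held 63.5% of the induced UMIs, and the log2 ratio lay between 3.61 and 5.94 over the processing settings. Cluster 5 had 29 and 130 UMIs (8.51 and 39.2 CPM), a log2 ratio of 2.18 (1.61 to 2.84). The exception was the fibroblast-like cluster 11. There the control library was higher, at 184 UMIs (128.1 CPM) against 112 UMIs (60.4 CPM), a log2 ratio of −1.08 (−1.44 to −0.74), while 1.82% of its tested genes were at least 2-fold lower. Few cells carried this: 5 control cells held 86.4% of the Isg15 UMIs, and without the 5 highest cells of each library the ratio was 0.40. The share of thinned fibroblast-like cells with an Isg15 UMI was 8 of 112 (7.14%) in control and 20 of 147 (13.6%) in induced cells.

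Irf7 (ENSMUSG00000025498), the transcription factor that amplifies type I interferon production, had 11 clusters with enough UMIs. It was at least 2-fold higher in 7, beside 2.25% to 5.92% of all genes over the 18 clusters. Its control levels in the 18 clusters lay between 0 and 16.0 CPM and its induced levels between 2.43 and 18.5 CPM. In cluster 6 it had 2 and 31 UMIs (0.516 and 9.11 CPM), in cluster 10 there were 13 and 32 UMIs (4.89 and 18.5 CPM), and in cluster 7 there were 12 and 33 UMIs (5.28 and 12.3 CPM), a log2 ratio of 1.18 (0.23 to 2.30). HF-SC-like cells had 14 and 10 UMIs.

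Oasl2 (ENSMUSG00000029561), an antiviral protein of the oligoadenylate synthetase family and the member with the miR-205 seed match, had 51 UMIs in all control cells and 308 in all induced cells (1.01 and 6.79 CPM). It was at least 2-fold higher in each of the 8 clusters with at least 20 UMIs. Over the 18 clusters 2.25% to 5.92% of all genes were at least 2-fold higher. The 8 clusters passed the filter of 20 UMIs mainly through induced counts. In the cycling-like cluster Oasl2 had 2 and 27 UMIs (0.681 and 14.9 CPM), and in cluster 13 there were 3 and 27 UMIs. Cluster 6 had 0 and 23 UMIs, at least 8.74-fold higher against 3 control counts.

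Rtp4 (ENSMUSG00000033355), an interferon-induced protein of the receptor transporter family, had 61 and 350 UMIs over all cells (1.21 and 7.72 CPM). Fibroblast-like cells held 21 UMIs (14.6 CPM) in control and 71 UMIs (38.3 CPM) in induced cells, or a log2 ratio of 1.37 (0.67 to 2.17). Cluster 5 held 5 and 55 UMIs (1.47 and 16.6 CPM), and cluster 6 held 0 and 24, at least 9.12-fold higher. Rtp4 was at least 2-fold higher in the 4 clusters where it could be compared, with the same limit of the filter as for Oasl2. Over the 18 clusters 2.25% to 5.92% of all genes were at least 2-fold higher.

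The Ifit genes, which encode proteins that bind foreign RNA, were sparse. Ifit1 (ENSMUSG00000034459) had 38 and 199 UMIs over all cells and reached 20 UMIs in 4 clusters. Most of its counts came from single cells: in cluster 0, 4 cells held all of the 29 induced UMIs, and without the 5 highest cells of each library 2 control and 0 induced UMIs were left. In cluster 5 it had 1 and 25 UMIs, and in fibroblast-like cells 2 and 34 UMIs (1.39 and 18.3 CPM), 91.2% of the latter in 5 cells. Ifit3 (ENSMUSG00000074896) had 6 and 64 UMIs over all cells and reached 20 UMIs in 0 of the 18 clusters, so it was not compared. Its transcript end shares 14.9% of its 50-base words with I830012O16Rik.

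Ifitm3 (ENSMUSG00000025492), which blocks virus entry at the membrane, was the most abundant member and had the smallest ratio over all cells. It had 34909 UMIs (690.4 CPM) in control and 39849 UMIs (878.4 CPM) in induced cells, or a log2 ratio of 0.35 (0.33 to 0.37). Cluster 6, where 2.8% of all genes were at least 2-fold higher, was its 1 cluster past 2-fold of 18. Ifitm3 had 126 and 364 UMIs (32.5 and 107.0 CPM) there, a log2 ratio of 1.72 (1.42 to 2.02). In cluster 5 the ratio was 0.97 (0.85 to 1.08). HF-SC-like cells had 173.1 and 152.9 CPM, a log2 ratio of −0.18 (−0.35 to −0.01), and cluster 7 had 511.5 and 677.0 CPM, a log2 ratio of 0.40 (0.30 to 0.51). Among the 18 compared clusters its highest levels were in fibroblast-like cells, at 1653 and 1965 CPM. Part of its transcript end (14.0% of 50-base words) occurs also in Ifitm1, Ifitm2 or Gm7676.

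**Figure D2:**
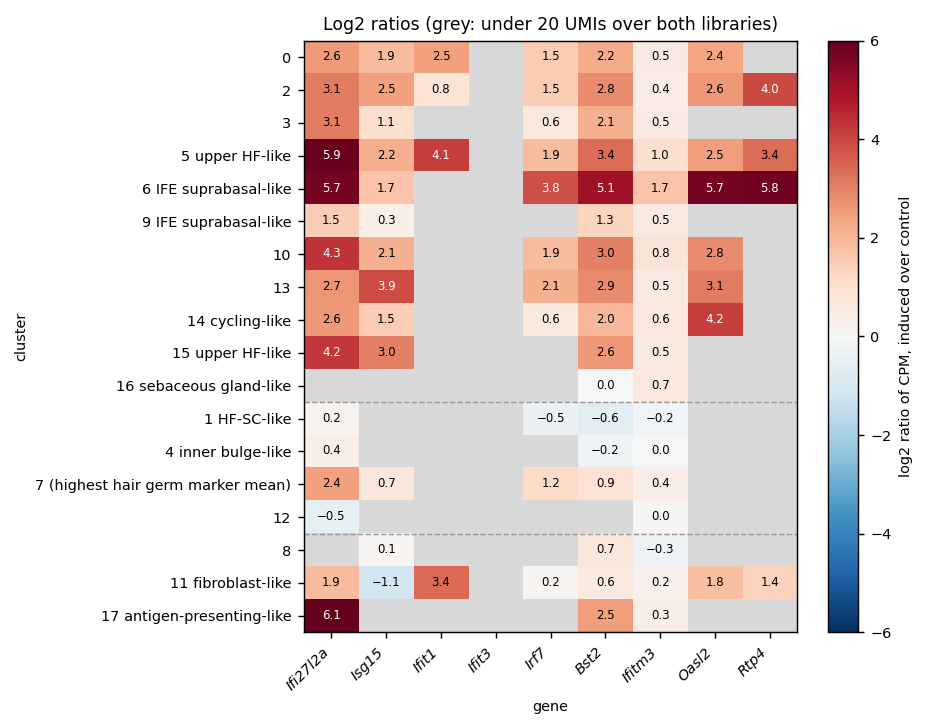
Log2 ratio of CPM, induced over control, for the 9 genes (columns) in the 18 compared clusters (rows, grouped as in the plot of levels), with a pseudocount of 0.5 UMIs and grey where both libraries together held under 20 UMIs. Columns Ifi27l2a, Isg15, Bst2 and Oasl2 are red in the top 10 rows wherever they could be compared, with Isg15 in cluster 9 the palest at 0.35; values with 0 control UMIs (Ifi27l2a in cluster 17, Oasl2 and Rtp4 in cluster 6) depend on the pseudocount.

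Summed without Ifi27l2a and without the abundant Ifitm3, the 7 other genes had their highest log2 ratio in cluster 13, at 3.19 (2.66 to 3.83), from 29 UMIs (18.2 CPM) in control and 242 UMIs (169.1 CPM) in the induced library. There 5 cells held 63.5% of the 74 induced Isg15 UMIs, and 5 cells held 43.7% of the 87 induced Bst2 UMIs. In cluster 6 the 7 genes held 39 UMIs (10.1 CPM) in control and 282 UMIs (82.9 CPM) in induced cells, or a log2 ratio of 3.03 (2.56 to 3.57). Cluster 5 had 20.8 and 144.5 CPM, a log2 ratio of 2.78 (2.43 to 3.17). Cluster 7 had 22.4 and 42.4 CPM, a log2 ratio of 0.91 (0.43 to 1.42), and HF-SC-like cells 12.5 and 8.91 CPM, a log2 ratio of −0.49 (−1.20 to 0.20). Fibroblast-like cells, the highest of the 18 compared clusters in control at 243.0 CPM, were at 266.5 CPM. There Isg15 made up 184 of the 349 control UMIs of the sum, and 5 cells held 86.4% of the 184. The near-equal levels of the sum therefore rest in part on few control cells.

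Read cluster by cluster, members at least 2-fold higher were counted beside the percent of all tested genes that were. Cluster 5 had 7 of 8 members (2.29% of all genes), cluster 6 had 7 of 7 (2.8%), cluster 0 had 6 of 7 (2.68%) and cluster 2 had 6 of 8 (2.41%). Clusters 10 and 13 had 5 of 6 each (3.18% and 2.36%), the cycling-like cluster had 4 of 6 (2.96%), cluster 15 had 3 of 4 (3.03%), cluster 3 had 3 of 5 (2.25%) and cluster 9 had 2 of 4 (3.55%). Cluster 7 had 2 of 5 (5.92%), the fibroblast-like cluster had 4 of 8 (4.6%) and the antigen-presenting-like cluster had 2 of 3 (5.06%). The count was 0 of 4 in HF-SC-like (3.61%), 0 of 3 in inner bulge-like (3.54%) and 0 of 2 in sebaceous gland-like cells (3.43%), 0 of 3 in cluster 8 (3.59%) and 0 of 2 in cluster 12 (3.08%). Isg15 in fibroblast-like cells was the 1 member value at least 2-fold lower (1.82% of all genes there). In the other clusters 0 members were lower, where the percent of all genes lower was 1.68% in cluster 0, 2.27% in 1, 1.5% in 2, 1.69% in 3, 1.49% in 4, 1.24% in 5, 1.86% in 6, 2.29% in 7, 3.85% in 8, 1.8% in 9, 2.08% in 10, 2.28% in 12, 2.29% in 13, 2.2% in 14, 2.2% in 15, 4.26% in 16 and 5.35% in 17. Nothing is read from these shares, because the members were chosen on this contrast.

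Single cells with several of the genes at once were found mainly in the induced library. After thinning to 5000 UMIs, 4 of 3632 control cells (0.110%) and 43 of 3300 induced cells (1.30%) had a UMI of at least 5 of the 9 genes, the count set at first, with earlier results known. As so few cells reached 5, a lower count of 3 was added after the values were seen: 39 control cells (1.07%, interval 0.765% to 1.47%) and 299 induced cells (9.06%, 8.10% to 10.1%) reached it. Cells below 5000 UMIs, 304 in control and 328 in induced, were not thinned and not counted. The 9 genes include Ifi27l2a, which was chosen on this contrast, so an excess in the induced library is partly built in. They also include Ifitm3, found in 95.2% of thinned control cells of cluster 0, 40.7% of HF-SC-like and 13.9% of inner bulge-like ones. Reaching 3 genes is therefore not alike between clusters. In cluster 5 the cells with at least 3 genes were 2 of 253 (0.791%) in control and 40 of 216 (18.5%) in the induced library, in cluster 10 there were 3 of 194 (1.55%) and 23 of 114 (20.2%), and in the cycling-like cluster 4 of 143 (2.80%) and 22 of 82 (26.8%). HF-SC-like cells had 1 of 334 (0.299%) and 1 of 336 (0.298%). Cluster 7 had 1 of 189 (0.529%) and 13 of 204 (6.37%). The fibroblast-like cells began higher, at 9 of 112 (8.04%), and stood at 28 of 147 (19.0%).

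**Figure D3:**
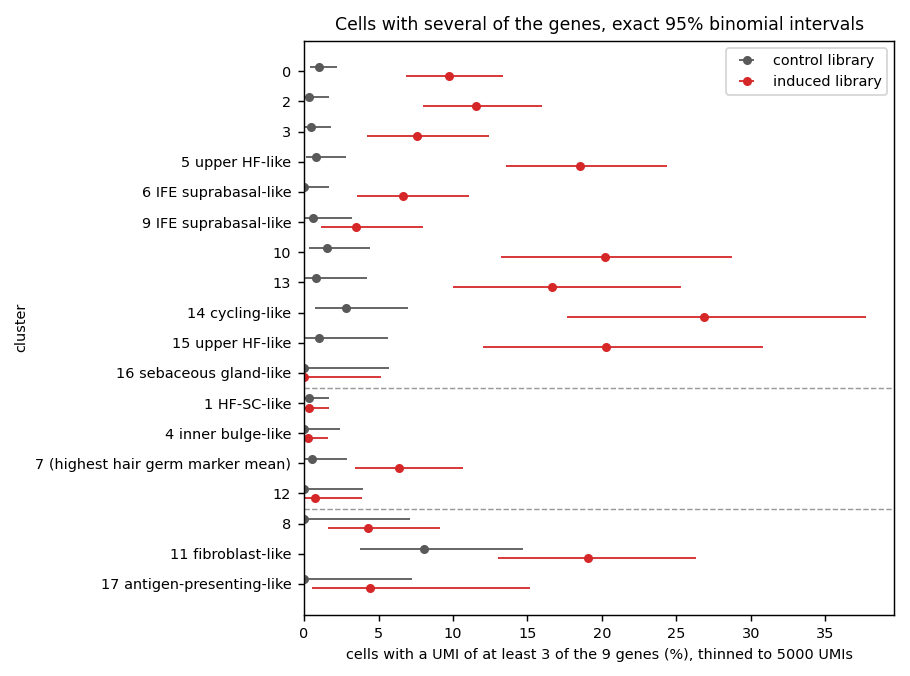
Percent of cells with a UMI of at least 3 of the 9 genes after each cell was thinned to 5000 UMIs, per cluster, control library in grey and induced library in red, with exact 95% binomial intervals. The red points of clusters 0, 2, 3, 5, 6, 7, 10, 11, 13, 14 and 15 lie right of the grey intervals, at 6.37% or more, while clusters 1, 4, 12 and 16 stay at or under 0.709% in both libraries. The 9 genes include Ifi27l2a, chosen on this contrast, and Ifitm3, whose share of cells differs widely between clusters.

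Other genes that interferon regulates were taken as a list of 56, of which 54 were among the features. In cluster 5, 9 of 26 with enough UMIs were at least 2-fold higher (2.29% of all genes tested there) and 0 lower (1.24%). Their median log2 ratio was 0.81 beside 0.03 over all genes tested. Percentages in the next counts are likewise those of all genes. Cluster 2 had 10 of 25 higher (2.41%) and 1 lower (1.5%), with a median of 0.78 beside 0.02. Cluster 10 had 8 of 23 higher (3.18%) and 0 lower (2.08%), with a median of 0.86 beside 0.03. In HF-SC-like cells 0 of 21 were higher (3.61%) and 2 lower (2.27%), with a median of 0.06 beside 0.09. Inner bulge-like cells had 0 of 13 higher (3.54%), with a median of −0.15 beside 0.04. Cluster 7 had 6 of 20 higher (5.92%) and 2 lower (2.29%), with a median of 0.09 beside 0.03. Its count of higher genes was 1 under 5% mitochondrial UMIs. Fibroblast-like cells had 4 of 36 higher (4.6%), with a median of 0.27 beside 0.07. Over all kept cells Xaf1, a pro-apoptotic factor of the list, was at 2.73 CPM in control and 8.86 CPM in the induced library. Ifi202b, a DNA-binding protein of the p200 family, ran against its list: it was at least 2-fold lower in 7 of 18 clusters and higher in 0. Over the 18 clusters 1.24% to 5.35% of all genes were at least 2-fold lower. HF-SC-like cells had 254 Ifi202b UMIs (72.3 CPM) in control and 43 (12.4 CPM) in induced cells, or a log2 ratio of −2.54 (−3.05 to −2.08). In cluster 7 it was at 45.3 and 14.9 CPM, a log2 ratio of −1.60 (−2.17 to −1.07).

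A list of 23 genes that respond most to interferon gamma (guanylate-binding proteins, immunity-related GTPases, Cxcl9 and Cxcl10, the immunoproteasome) had its highest medians in cluster 13, at 1.89 with 6 of 12 genes at least 2-fold higher (2.36% of all genes there), and in the cycling-like cluster, at 1.21 with 7 of 12 (2.96%). Gbp2, a guanylate-binding protein, had 5 UMIs (3.14 CPM) in control and 156 (109.0 CPM) in induced cells of cluster 13. Fibroblast markers differed between the libraries in these clusters: their sum was 439.1 CPM in control and 35.6 CPM in induced cells of cluster 13, with 1 of 7 higher in the induced library, and 119.1 and 23.7 CPM in the cycling-like cluster, with 0 of 7 higher. Few cells carried this: 5 or more fibroblast marker UMIs were found in 1 control and 1 induced cell of cluster 13. In the cycling-like cluster there were 3 and 2 such cells. In HF-SC-like cells 0 of 9 genes of the interferon gamma list were higher (3.61% of all genes) and 4 lower (2.27%), with a median of −0.94 beside 0.09 over all genes tested. The 4 included the chemokines Cxcl9 (42 and 1 UMIs) and Cxcl10 (20 and 1 UMIs), which recruit T cells, and Psmb8, an immunoproteasome subunit, at 19.6 and 8.62 CPM. In cluster 7 Cxcl10 stood higher, at 12.8 and 41.6 CPM, as did Irf1, an interferon-induced transcription factor, at 54.6 and 139.4 CPM, and Ifi27, at 75.7 and 203.0 CPM. Its lowest listed genes beside Ifi202b were Psme2, a proteasome activator, with a log2 ratio of −0.36 (−0.66 to −0.06), and Irf5 at −0.33 (−1.06 to 0.40).

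**Figure D4:**
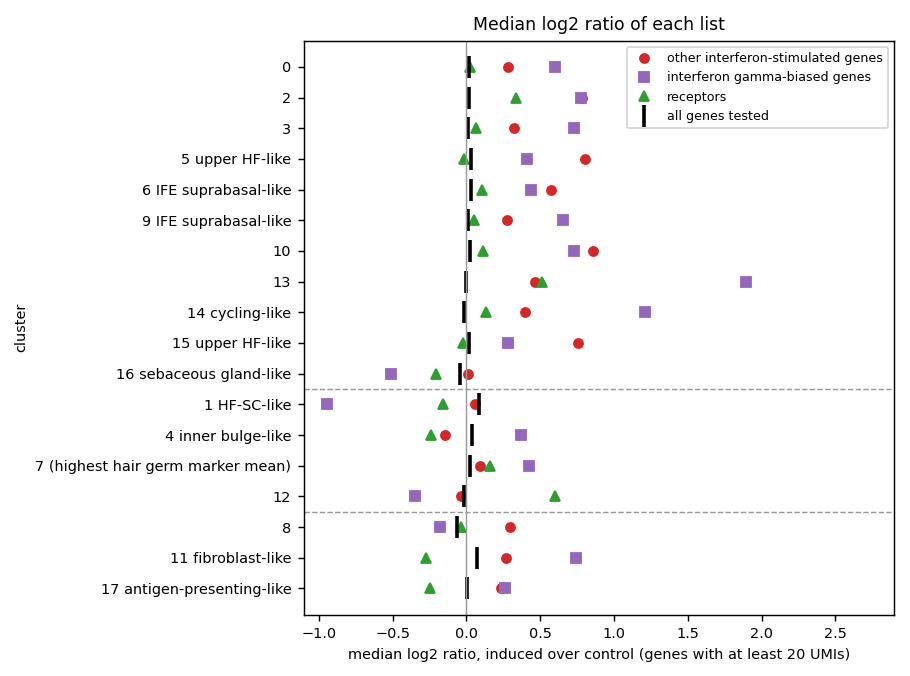
Median log2 ratio, induced over control, of 3 gene lists and of all genes tested in each compared cluster (genes with at least 20 UMIs; rows grouped as in the plot of levels). The circles for the other interferon-stimulated genes lie right of the black all-gene marks in each of the top 11 rows, up to 0.86 in cluster 10, while the squares for interferon gamma-biased genes range from −0.94 in the HF-SC-like cluster to 1.89 in cluster 13.

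In the remaining listed genes of HF-SC-like cells, Usp18, the protease that removes Isg15 and damps the type I receptor, was at 7.97 CPM in control and 14.9 CPM in induced cells, or a log2 ratio of 0.89 (0.22 to 1.62). Ifnar1 was at 6.83 and 12.1 CPM and Ifi27 at 74.3 and 100.6 CPM, while the immunoproteasome subunit Psmb9 was at 14.0 and 7.19 CPM. These stayed within 2-fold. In fibroblast-like cells the highest 3 were Irf9 (7.66 and 33.5 CPM), Cxcl9 (14.6 and 57.7 CPM) and Gbp3 (9.75 and 32.9 CPM), and the lowest 3 were Il10rb at a log2 ratio of −0.53, Ifnar1 at −0.53 and Ifi202b at −0.38.

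Of 11 genes that carry the signal from receptor to promoter, Irf9 was at least 2-fold higher in 12 of 15 clusters with enough UMIs and Stat2 in 6 of 13, each lower in 0. Over the 18 clusters 2.25% to 5.92% of all genes were at least 2-fold higher and 1.24% to 5.35% lower. In cluster 15 Irf9 had 10 UMIs (10.4 CPM) in control and 41 UMIs (47.8 CPM) in the induced library. HF-SC-like cells had Irf9 at 3.99 and 7.19 CPM, with a log2 ratio of 0.83 (−0.15 to 1.91). Sensors of foreign nucleic acid, 9 of 11 listed being among the features, had at most 5 members with enough UMIs in a cluster, and 0 were past 2-fold in the 18 clusters.

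Interferon transcripts themselves were rare. Of 10 ligand genes, Ifna1, Ifna2, Ifna4, Ifnb1, Ifne and Ifnl2 had 0 UMIs in both libraries, and Ifnz and Ifnl3 had 1 UMI each, both in induced cells. Ifng was found only in cluster 18, led by Gzmb, Icos and Cd8a, with 3 UMIs in 16 control cells and 19 UMIs in 76 induced cells, or 44.6 and 46.4 CPM. Ifnk, the keratinocyte type I interferon, was concentrated in the sebaceous gland-like cluster, of which it was the leading gene, at 323 UMIs (283.9 CPM) in control and 196 UMIs (149.2 CPM) in induced cells. In cluster 10 it had 6 and 48 UMIs (2.26 and 27.8 CPM), a log2 ratio of 3.52 (2.39 to 5.14), and in cluster 0 it had 33 and 5 UMIs. Ifi27l2a in the sebaceous gland-like cluster had 5 UMIs (4.39 CPM) in control and 11 UMIs (8.37 CPM) in induced cells, too few to compare. Whether Ifnk had a part in the member values was not tested.

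Receptor genes were nearly all within 2-fold between the libraries. Over the 18 clusters and 6 receptor genes, Ifnar1 in cluster 6 (3.35 and 11.2 CPM) was the receptor value at least 2-fold higher, and Ifnar2 in cluster 9 (6.73 and 2.78 CPM) the one 2-fold lower. Ifngr1, the ligand-binding chain of the interferon gamma receptor, stood at 6.83 CPM in HF-SC-like, 6.27 CPM in inner bulge-like and 7.04 CPM in cluster 7 control cells, against 45.5 CPM in cluster 5, 78.0 CPM in cluster 0 and 103.5 CPM in cluster 13. Ifnlr1, the specific chain of the lambda receptor, was counted low everywhere, with 37 UMIs (10.9 CPM) in cluster 5, 34 (8.77 CPM) in cluster 6, 3 (0.854 CPM) in HF-SC-like and 1 (0.784 CPM) in inner bulge-like control cells. Across the 15 keratinocyte clusters, Pearson's r between the control level of a receptor, as log2(CPM + 10), and the Ifi27l2a log2 ratio was 0.93 for Ifnlr1, 0.72 for Il10rb, its partner chain, 0.58 for Ifngr2, 0.48 for Ifngr1, 0.36 for Ifnar2 and 0.22 for Ifnar1. With the log2 ratio of the 7-gene sum in place of Ifi27l2a the order was another one: r was 0.80 for Ifnlr1, 0.72 for Ifngr1, 0.59 for Il10rb, 0.47 for Ifngr2, 0.34 for Ifnar2 and 0.17 for Ifnar1. These are descriptions over clusters that come from the same 2 libraries and differ in depth, and the choice of 6 receptors was made with the ratios known.

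**Figure D5:**
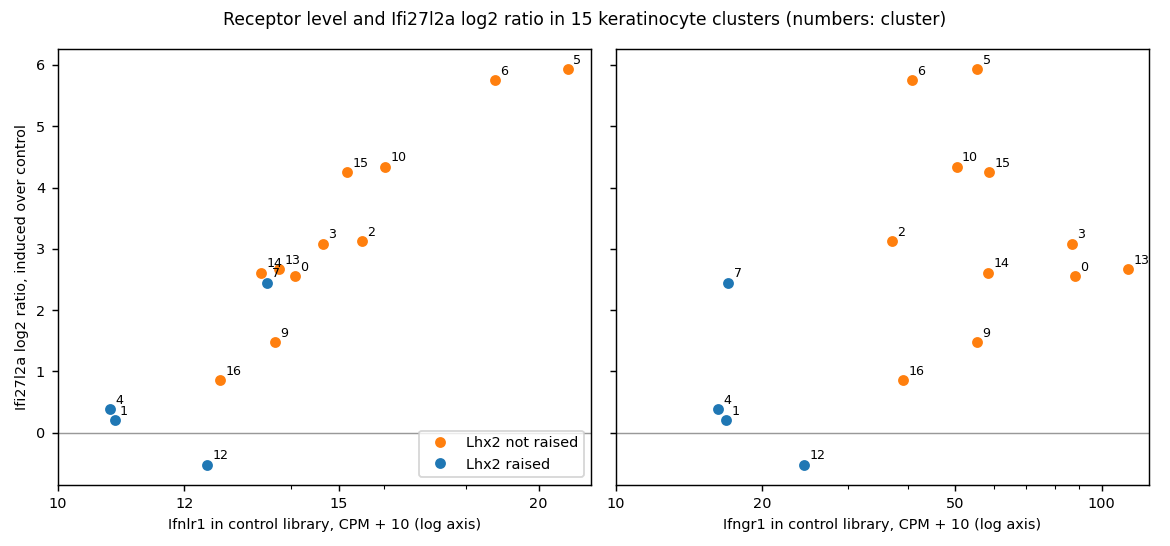
Control-library level of Ifnlr1 (left) and Ifngr1 (right), as CPM + 10 on log axes, against the Ifi27l2a log2 ratio in 15 keratinocyte clusters, labelled by number, blue where Lhx2 is raised and orange otherwise. Clusters 5 and 6 sit at the upper right on the left panel with 10.9 and 8.77 CPM of Ifnlr1. Clusters 1 and 4 lie at the lower left with 0.854 and 0.784 CPM. Clusters 4, 12 and 16 rest on 21, 23 and 16 Ifi27l2a UMIs over both libraries.

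Over the 39 pairs of cluster and library with at least 30 cells, the genes whose log2(CPM + 10) was most like that of Ifi27l2a among 10653 genes were Irf9 (Pearson's r 0.79), Oasl2 (0.75), Tmem222 (0.69) and Bst2 (0.69). Irf7 ranked 7th. Isg15 had an r of 0.53 with Ifi27l2a and 0.85 with both Bst2 and Rtp4. The points share libraries, depth and chemistry.

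Markers of other cells were checked in the clusters that the results turn on. The sum of 7 fibroblast markers in cluster 7 was 48.0 CPM in control and 32.3 CPM in induced cells, with 3 of 7 higher in the induced library and Mfap5 at 0 in both. In cluster 5 it was 25.8 and 16.6 CPM, with 1 of 7 higher. The 7 antigen-presenting markers summed to 97.8 and 142.3 CPM in cluster 5, with 3 of 7 higher. There Cd74 alone held 227 of 333 control and 371 of 472 induced UMIs, while Ptprc, Fcer1g, H2-Aa and Mfge8 were lower. In cluster 10 the 7 markers summed to 154.7 and 420.1 CPM, with 6 of 7 higher and Ptprc at 0 in both. In the cycling-like cluster they summed to 34.0 and 102.1 CPM, with 5 of 7 higher, and in cluster 2 to 49.5 and 119.0 CPM, with 6 of 7 higher. In the HF-SC-like cluster they summed to 68.1 and 62.1 CPM, and Mfge8 held 196 of 239 control and 167 of 216 induced UMIs. T cell markers summed to at most 6.99 CPM in any of the 15 keratinocyte clusters apart from the cycling-like one, where they stood at 23.8 and 1.10 CPM. The part of these markers in the member values was not tested.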

How the data were processed

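Both libraries were 10x Genomics 3′ single-cell libraries. The authors mapped and counted reads with Cell Ranger (matrix header version 3.0.1; build mm10 per the labels) and deposited raw UMI counts per gene and barcode, without normalization. The deposited counts were analysed with the cell filter the study states: more than 200 and fewer than 5000 genes and under 10% mitochondrial UMIs, which kept 86.6% of control and 85.1% of induced barcodes. The symbol column repeats 36 symbols. Rows of a repeated symbol were kept apart, and named genes were looked up by symbol, with the first row taken.

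The libraries were integrated in Seurat 5.3.0 (R 4.3.3) with 2000 variable genes, 30 dimensions and Louvain resolution 0.8. Every member and listed pathway gene was withheld from the variable genes, so no cluster was defined by them. A cluster was named where at least 3 of a cell type's markers (at least 20 UMIs) were raised at least 2-fold, 1 was among its top 10 genes, and no other type had more. Doublets were not removed: Scrublet (scanpy 1.11.5) marked 4 and 5 barcodes on its own threshold, and an alternative left out the 165 and 145 highest-scoring.

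UMIs were summed per cluster and library and scaled to CPM. Log2 ratios carry a pseudocount of 0.5 UMIs and exact 95% intervals (Poisson for levels, conditional binomial for ratios, Clopper-Pearson for shares), where both libraries together held 20 or more UMIs of the gene. "At least 2-fold" means a log2 ratio of at least 1 or at most −1. The ratio step was checked on simulated counts. With 1 library per group no test across genes was run. UMI values are tags at transcript ends and were compared between clusters and libraries, not between genes.

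Named genes were the 9 members, every ligand and receptor with a UMI, Stat2, Irf9, Usp18 and Ifi202b, the 3 highest and 3 lowest listed genes (at least 50 UMIs) in the HF-SC-like, fibroblast-like and hair germ marker-rich (cluster 7) clusters, and the genes most like Ifi27l2a among those with at least 200 UMIs. The rule also named 1 gene that is not reported here. Outside this rule, Xaf1, Gbp2, the Cxcl9 and Cxcl10 values in HF-SC-like cells and Irf7's rank were named after their values were seen. The members and lists were chosen with earlier results of these data known. The naming rule, the split by Lhx2, the definition of keratinocyte clusters (Krt14, Krt5, Krt1 and Krt10 together at 2000 CPM or more) and the overlap needed to match clusters between settings (a Jaccard index of 0.5) were set after seeing the data. Promoter and miRNA sequences are RefSeq's. The 3′ UTRs searched for the seed match and the transcript ends searched for shared words came from GENCODE vM1 protein-coding transcripts. The alternatives concerned the cell filter, doublets, scaling, averaging over cells, few high cells, fibroblast RNA, clustering, gating on markers, the filter on low counts and thinning.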

Additional observations from a re-analysis of the deposited data

Results flagged for a closer look

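Isg15 in the fibroblast-like cluster ran against the rest: its log2 ratio was −1.08 there, while it was at least 2-fold higher in 9 other clusters. Of all genes, 1.82% in the fibroblast-like cluster were at least 2-fold lower, and 2.25% to 5.92% over the 18 clusters were higher. The difference between clusters was not tested. The 184 control UMIs of Isg15 lay mostly in 5 cells (86.4%), and the direction turned under 5 alternatives given with the effects of processing.

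Barcodes that the cell filter removed, 609 in control and 636 in induced, had Ifi27l2a at 48 UMIs (9.79 CPM) in control and 308 UMIs (70.5 CPM) in induced droplets, a log2 ratio of 2.83 (2.40 to 3.32), beside 3.02 in the kept cells.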

How the results depend on the processing

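Of 1451 values of 181 results recomputed under the alternatives, 1250 stayed within their counting interval or, for counts of genes, close to their value, 195 moved further and 6 reversed. Isg15 in the fibroblast-like cluster reversed to 0.40 without the 5 highest cells, 0.082 under 5% mitochondrial UMIs, 0.21 with no upper limit on genes, 0.15 at resolution 1.2 and 0.71 with cells gated on markers; Ifit1 in cluster 0 reversed to −1.64 without the 5 highest cells. The causes were not tested.

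The Ifi27l2a log2 ratio of cluster 7 was 3.49 without the 5 highest cells, 3.14 under 5% mitochondrial UMIs and 3.40 with gated cells, and that of cluster 5 was 6.80, 5.21 (no upper limit on genes) and 4.97 (gated). Those of clusters 4 and 12 were 2.86 and 2.76 without the 5 highest cells, with 0 control UMIs left in each. The sum of the 8 other members, 1.202 in cluster 5, 0.24 in the fibroblast-like cluster and 0.43 in cluster 7, moved to 1.42 (mean over cells) and 0.66 (gated) in cluster 5, to 0.13, 0.31 (under 5% mitochondrial UMIs) and 0.35 (gated) in the fibroblast-like cluster, and to 0.59 and 0.20 in cluster 7 under the latter 2 settings. The count of other interferon-stimulated genes at least 2-fold higher in cluster 7, 6 in the report, was 1 under 5% mitochondrial UMIs, 3 without the highest-scoring doublets, 3 at resolution 1.2, 1 with gated cells, 1 at 100 UMIs and 18 at 1 UMI. It was 1 at resolution 1.2 and 4 at 1 UMI in HF-SC-like cells. At 100 UMIs it was 0 in cluster 5 and 0 in the fibroblast-like cluster, and at 1 UMI 23 and 8; fewer or more genes enter there by construction. The causes were otherwise not tested.

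In 10 pairs of cluster and alternative clustering no cluster overlapped enough to match, so no value was given, among them clusters 4, 5 and 6 under 5% mitochondrial UMIs. No paired analysis was possible because each group held 1 library. Depth limited Ifit1 and Rtp4 to 4 clusters with 20 UMIs each and Ifit3 to 0.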
